A study of Drosophila melanogaster with 8 samples.

Results

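Synaptic vesicle fusion and active zone genes encode the proteins that bring a transmitter-filled vesicle to the presynaptic membrane and fuse it there. The 10 genes described here were n-syb, Syx1A, Snap25, Rop, Syt1, cpx, unc-13, Rim, brp and stnB, of 14210 genes in the files, and each was found by an exact match of its gene symbol in all 8 library tables. The series measured polyadenylated RNA of neuroblasts, the dividing stem cells of the Drosophila larval brain, and of their differentiated daughters, the neurons. All samples were wild type and came from brains of larvae late in the third instar, in which asense-Gal4 drives UAS-stingerGFP, so both sorted cell types carried the nuclear green fluorescent protein. Eggs were laid over 24 h, larvae grew for 5 days at 25 degrees, and the cells were separated by FACS (fluorescence-activated cell sorting). There were 3 neuroblast and 2 neuron replicates, of which neuroblast 2, neuroblast 3 and neuron 1 have a pair of technical libraries each.

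A synaptic vesicle fuses when a SNARE protein on the vesicle, synaptobrevin, zips together with the plasma membrane SNAREs syntaxin and SNAP-25, with a Sec1/Munc18 protein guiding the assembly. Synaptotagmin senses the incoming calcium and complexin holds the partly assembled complex until that signal. At the active zone, the patch of membrane where release takes place, scaffold proteins dock and prime vesicles beside calcium channels, and after fusion the membrane is taken back up by endocytosis.

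All 10 genes were higher in neurons than in neuroblasts. The values are FPKM (fragment numbers scaled for the length of the transcript and the size of the library). A gene was called where limma, fitted to log2(FPKM + 1) across the 7975 genes that passed a filter of at least 1 FPKM in at least 2 replicates, gave a Benjamini-Hochberg adjusted p under 0.05. Of all tested genes, 29.9% were called higher in neurons, against 10 of the 10 genes here. Every neuron replicate lay above every neuroblast replicate for 10 of the 10, where 36.8% of all tested genes showed that separation. The median log2 fold change of the 10, neuroblast minus neuron, was -3.61, beside 0.17 over all tested genes. In cells sorted and pooled, fewer cells that express a gene and less RNA of it per cell cannot be told apart. Nothing in the labels says that the replicates came from separate animals or sorts, so each p-value reflects the spread among these samples alone, which may be technical.

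The libraries differed in depth and in flow cell, the latter as read from the names of the files. Summed over single-transcript genes, the fragments recovered from the Cufflinks intervals came to 953171 in neuron 2, the shallowest library, and to 16282071 in the deepest, of neuroblast 3. The Cufflinks intervals of the 10 genes reached 2.45% to 20.3% of the value to either side in neuron libraries and 3.80% to 149% in neuroblast libraries, where some genes rested on almost no fragments. Those intervals do not cover the spread between replicates. Between technical libraries the 10 genes differed by at most 0.28 on the log2(FPKM + 1) scale, which shrinks differences between low values. Syt1, for example, stood at 0.110 and 0.177 FPKM in the libraries of neuroblast 3. The intervals of a pair overlapped for 10 of 10 genes in each of the 3 pairs. All 6 neuroblast markers (dpn, wor, mira, ase, CycE, insc) were called higher in neuroblasts and all 6 neuron markers (elav, fne, Appl, futsch, onecut, nrv3) higher in neurons. The call of ase was lost in 9 of 19 alternatives, among them the 4 other scalings, and those of fne and nrv3 were lost without neuron 2. Of 7 tested glia markers, 4 were called higher in neurons (repo, moody, Gs2, gcm) and 2 in neuroblasts (Eaat1, loco). Of these, moody and Gs2 passed the filter through the neurons alone, so their direction was fixed by it. Mean FPKM was 0.149 in neuroblasts and 1.70 in neurons for moody, and 0.687 and 2.71 for Gs2. The call of loco was lost with upper quartile, median ratio and protein-coding sum scaling, among others. The summed level of the 8 listed was 166 to 244 FPKM in neuroblast and 104.2 to 134.4 FPKM in neuron replicates, with none at 0. In neuroblast 1 most of the 244 FPKM was nrv2 (155), which was not called, and Eaat1 (67.5). The median marker stood at 17.3%, 18.8% and 46.6% of its neuron mean in neuroblasts 1, 2 and 3. What part glia had in the values was not tested.

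**Figure D1:**
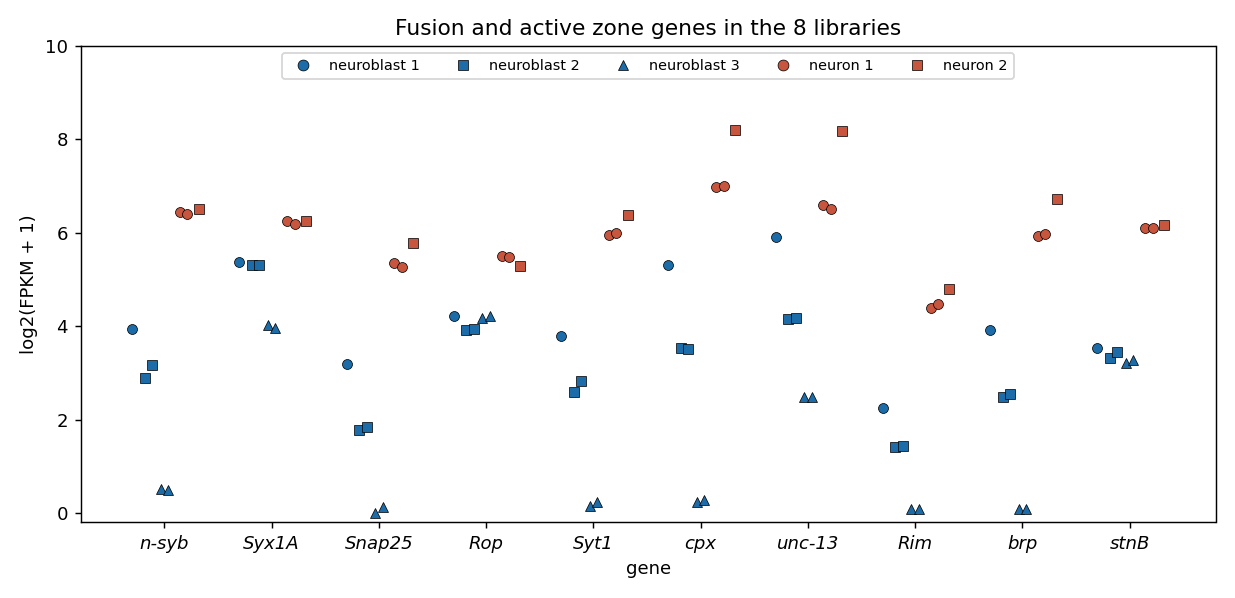
Level of the 10 genes in each of the 8 libraries as log2(FPKM + 1), with blue for neuroblasts, red for neurons and a marker shape for each replicate, and technical libraries drawn as separate points. All neuron points of a gene lie above all of its neuroblast points, and neuroblast 3 falls near 0 for n-syb, Snap25, Syt1, cpx, Rim and brp but not for Syx1A, Rop, unc-13 and stnB.

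Among the fusion machinery, the vesicle SNARE n-syb (neuronal synaptobrevin, FBgn0013342, chromosome arm 3L, 1630348 to 1637752, 8 transcripts in the files) stood at 14.2, 7.17 and 0.42 FPKM in neuroblasts 1, 2 and 3 and at 85.0 and 90.3 FPKM in neurons 1 and 2. The neurons were close to each other while the neuroblasts covered a 34.2-fold range, and the groups did not overlap. The means were 7.27 ± 6.91 FPKM (SD, n = 3) and 87.7 ± 3.70 FPKM (SD, n = 2), 12.1-fold higher in neurons. The log2 fold change was -3.98 (SE 0.90), with a limma adjusted p of 0.00763. It was -2.99 without neuroblast 3 and -4.71 without neuroblast 1. All coordinates here are those of the files, and no source used here names their genome build.

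Snap25, the plasma membrane SNARE that contributes a pair of helices to the complex (FBgn0011288, 3L, 24067329 to 24292305), stood at 8.08, 2.51 and 0.0438 FPKM in neuroblasts and at 38.5 and 54.0 FPKM in neurons. In the technical libraries of neuroblast 3 its value rested on 0 and 2 effective fragments, so its level there is not resolved beyond being low. The mean was 3.54 ± 4.12 FPKM (SD, n = 3) in neuroblasts and 46.2 ± 11.0 FPKM (SD, n = 2) in neurons. The log2 fold change was -3.86 (SE 0.82), with a limma adjusted p of 0.00583. Leaving out neuroblast 3 gave -3.05 and leaving out neuroblast 1 gave -4.61.

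The syntaxin Syx1A and its partner Rop behaved differently from these SNAREs. Syx1A, the plasma membrane SNARE that also serves general secretion (FBgn0013343, 3R, 19927322 to 19931465), stood at 40.3, 38.5 and 14.8 FPKM in neuroblasts and at 73.4 and 74.8 FPKM in neurons. It had the highest mean of the 10 genes in neuroblasts, not beyond the spread of unc-13, at 31.2 ± 14.2 FPKM (SD, n = 3), against 74.1 ± 0.998 FPKM in neurons (SD, n = 2). The log2 fold change was -1.34 (SE 0.44), with a limma adjusted p of 0.0319. Leaving out neuroblast 3 gave -0.89. The gene 4EHP overlaps it on the same strand at up to 33.3 FPKM, so reads shared between them are uncertain.

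Rop, the Sec1/Munc18 protein that binds syntaxin (FBgn0004574, 3L, 4136359 to 4138996), stood at 17.6, 14.2 and 17.3 FPKM in neuroblasts and at 43.7 and 38.1 FPKM in neurons. In FPKM as deposited, neuroblast 3 was about level with neuroblast 1 here. The means were 16.4 ± 1.86 (SD, n = 3) and 40.9 ± 3.98 FPKM (SD, n = 2), 2.50-fold apart, with a log2 fold change of -1.27 (SE 0.25) and a limma adjusted p of 0.00441.

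Of the genes that control the timing of fusion, Syt1, the calcium sensor synaptotagmin 1 (FBgn0004242, 2L, 2780741 to 2799970), stood at 12.8, 5.53 and 0.144 FPKM in neuroblasts and at 61.7 and 81.8 FPKM in neurons. Its means of 6.15 ± 6.34 (SD, n = 3) and 71.7 ± 14.2 FPKM (SD, n = 2) were 11.7-fold apart, with a log2 fold change of -3.94 (SE 0.94) and a limma adjusted p of 0.00933. The neuroblast replicates were spread 88.9-fold, from highest to lowest, far more than the neurons. Without neuroblast 3 the log2 fold change was -2.93 and without neuroblast 1 it was -4.72.

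Complexin (cpx, FBgn0041605, 3R, 105906 to 130349), the small SNARE-binding protein that restrains spontaneous release, had the highest mean level in neurons. It stood at 38.5, 10.5 and 0.197 FPKM in neuroblasts and at 125 and 294 FPKM in neurons, so that neuron 2 was 2.35 times neuron 1. The log2 fold change of -4.56 was the largest of the 10 and also the least certain (SE 1.31), with a limma adjusted p of 0.0192. Leaving out neuroblast 3 or neuron 2 brought it to -3.18 or -3.95, and leaving out neuroblast 1 or neuron 1 to -5.70 or -5.18. The rank of cpx depended on the libraries used: on the shared flow cell, described below, cpx was at -2.56 and n-syb at -2.95. The files list 22 transcripts for cpx, more than for the other 9 genes, and an FPKM summed over many isoforms depends on how their reads were divided.

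Among the priming and active zone genes, unc-13, which opens syntaxin and primes docked vesicles (FBgn0025726, chromosome 4, 889296 to 925419), stood at 58.9, 17.0 and 4.57 FPKM in neuroblasts and at 92.9 and 289 FPKM in neurons. Neuron 1 lay closer to neuroblast 1 than to neuron 2 in FPKM, and the groups still did not overlap. The means were 26.8 ± 28.5 (SD, n = 3) and 191 ± 139 FPKM (SD, n = 2), with a log2 fold change of -3.18 (SE 0.95) and a limma adjusted p of 0.0228. That value was -2.33 without neuroblast 3, -2.37 without neuron 2 and -4.04 without neuroblast 1, and without neuron 1 it was -3.998.

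Rim, the scaffold that links Rab3 on vesicles to the active zone and its calcium channels (FBgn0053547, 3R, 13698470 to 13742300), was the lowest of the 10 by mean in both cell types. It stood at 3.75, 1.68 and 0.0598 FPKM in neuroblasts and at 20.6 and 26.7 FPKM in neurons. The means were 1.83 ± 1.85 (SD, n = 3) and 23.6 ± 4.35 FPKM (SD, n = 2), 12.9-fold apart. The log2 fold change was -3.36 (SE 0.60), with a limma adjusted p of 0.00290. At this low level it depended on the pseudocount, being -4.51 with 0.1 FPKM and -2.10 with 5 FPKM. Without neuroblast 3 it was -2.78 and without neuroblast 1 it was -3.86.

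Bruchpilot (brp, FBgn0259246, 2R, 5391293 to 5428822), the ELKS/CAST family protein that builds the T-shaped density of the fly active zone, stood at 14.0, 4.69 and 0.0553 FPKM in neuroblasts and at 61.1 and 105 FPKM in neurons. The highest neuroblast replicate was 254 times the lowest, which rested on 6 and 23 effective fragments in its technical libraries. With means of 6.26 ± 7.13 (SD, n = 3) and 82.8 ± 30.7 FPKM (SD, n = 2), brp had the largest ratio of means, 13.2-fold. The log2 fold change was -4.17 (SE 1.00), with a limma adjusted p of 0.00946, and it was -3.13 without neuroblast 3 and -5.05 without neuroblast 1.

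Stoned B (stnB, FBgn0016975, X, 22382558 to 22406483), the endocytic adaptor that retrieves synaptotagmin 1 from the membrane, stood at 10.5, 9.40 and 8.45 FPKM in neuroblasts and at 67.4 and 70.7 FPKM in neurons. Replicates of both cell types were tight, and the log2 fold change of -2.75 had the smallest standard error of the 10 (0.25) and the smallest limma adjusted p, 0.000498. The stoned locus produces a dicistronic transcript that encodes stoned A and stoned B. The reference annotation places stnA over the same span and the files list no gene of that name, so the value cannot be told apart into the 2 reading frames.

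**Figure D2:**
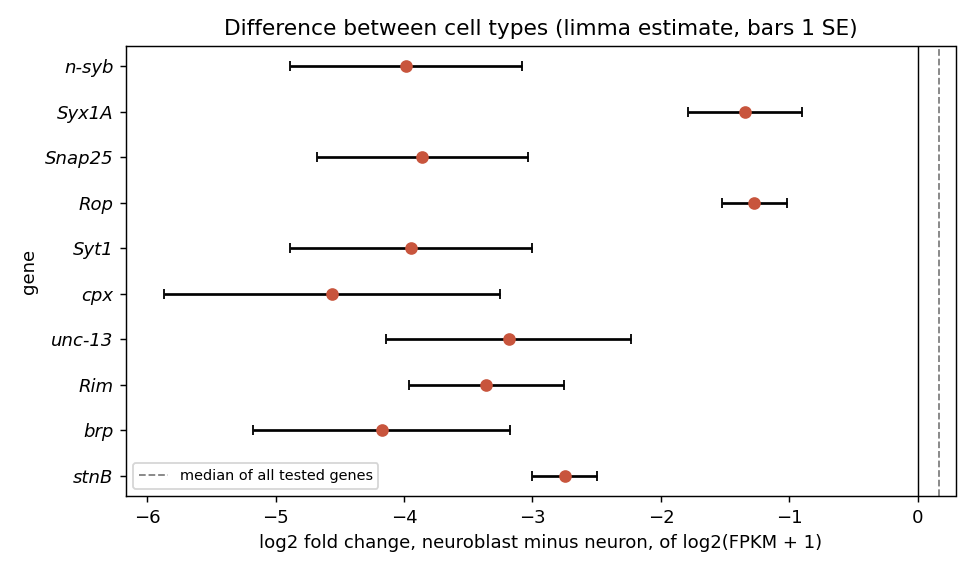
log2 fold change of each of the 10 genes, neuroblast minus neuron, on the log2(FPKM + 1) scale, as limma estimated it, with bars of 1 SE and a dashed line at the median of all tested genes, 0.17. The estimates run from -4.56 for cpx to -1.27 for Rop, and the bars are shortest for Rop and stnB.

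Without any 1 of the neuroblast replicates all 10 calls were kept. Only 5 of the 10 were called without neuron replicate 1 and only 3 without neuron replicate 2 (Rim, Rop and stnB), each time with every direction unchanged. In those fits, as on the shared flow cell, the lone neuron replicate was assumed to vary like the neuroblasts. Neuroblast 1, neuroblast 2 and neuron 1 shared 1 flow cell according to the names of the files, and within it 8 of the 10 were called. There n-syb had a log2 fold change of -2.95, stnB of -2.65, Rop of -1.41 and Syx1A of -0.88. In the same fit cpx had -2.56, with a limma adjusted p of 0.0627, and unc-13 had -1.52, with 0.178. The other flow cells hold 1 cell type each, so batch and cell type cannot be told apart for neuroblast 3 and neuron 2.

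The level of the 10 genes in neuroblasts moved from replicate to replicate, and mostly together. Set against the mean of the neurons, the median of the 10 genes was 17.6% in neuroblast 1, 7.94% in neuroblast 2 and 0.364% in neuroblast 3. For the 7 genes other than Syx1A, Rop and stnB the shares were 15.9% to 30.8% in neuroblast 1, 5.02% to 8.89% in neuroblast 2 and 0.0668% to 2.39% in neuroblast 3. In neuroblast 3, 6 of the 10 genes stood under 1 FPKM, while 0 did so in neuroblast 1 or 2, so none of the 10 passed the filter through the neurons alone.

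The 6 neuron markers followed the same order. Their summed level was 173, 92.1 and 27.2 FPKM in neuroblasts 1, 2 and 3 against 851 and 1256 FPKM in neurons, which is 16.4%, 8.74% and 2.58% of the neuron mean. Single markers ran from 12.3% to 20.5% in neuroblast 1, from 3.93% to 11.7% in neuroblast 2 and from 0.0655% (nrv3) to 6.42% (onecut) in neuroblast 3, and none was at 0. The part of neurons in the neuroblast libraries in these values was not tested.

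Rop and stnB, and less so Syx1A, differed from the other 7 genes in this. In neuroblast 3, where the summed neuron markers were at 2.58%, Rop was at 42.2%, Syx1A at 20.0% and stnB at 12.2% of the neuron mean. From neuroblast 1 to neuroblast 3 Rop differed 1.02-fold, stnB 1.24-fold and Syx1A 2.72-fold, while n-syb differed 34.2-fold and the neuron markers 3.20-fold (onecut) to 268-fold (nrv3). These are FPKM as deposited. Their sum over all genes was 551675 in neuroblast 1 and 740395 and 753682 in the libraries of neuroblast 3. Values rescaled for that sum were not compared between replicates. The choice of Rop, stnB and Syx1A was made after their values were seen, so it is a description. Exact permutation tests on the ratio of n-syb to each of them, given below, use the same values and add no separate support.

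**Figure D3:**
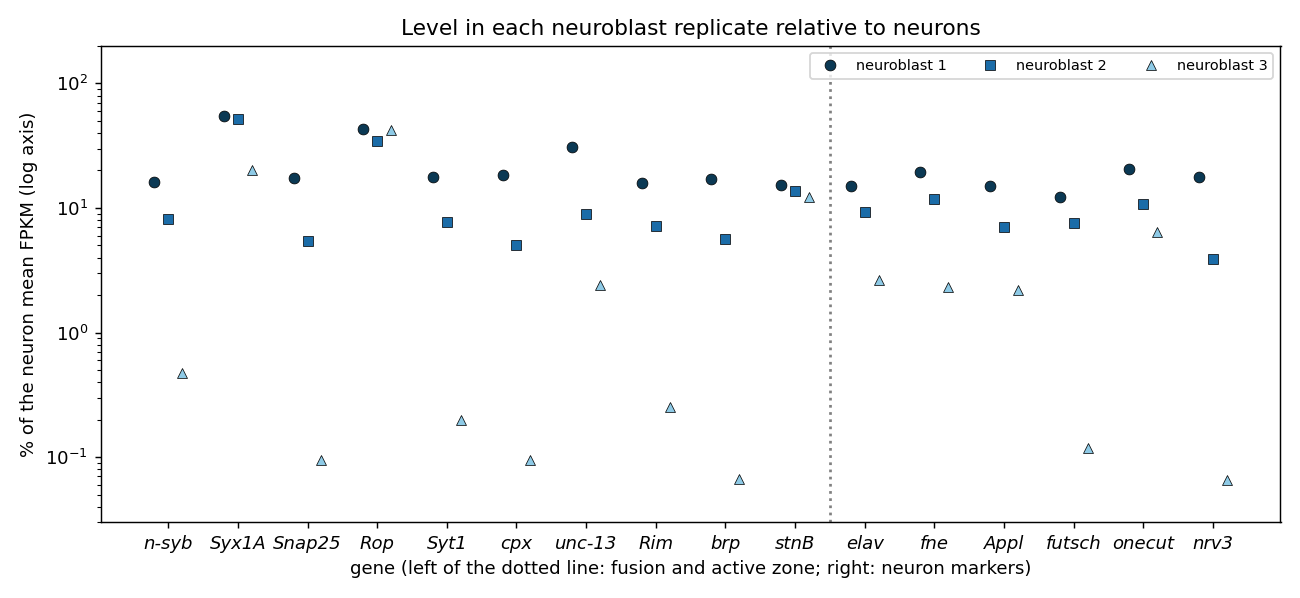
Level in each neuroblast replicate as a percent of the mean FPKM of the 2 neuron replicates, on a log axis, for the 10 genes to the left of the dotted line and for 6 neuron markers to the right. Most genes on both sides fall from about the same level in neuroblast 1 to a far lower level in neuroblast 3. In FPKM as deposited, not rescaled for library sums, Rop at 43.0%, 34.7% and 42.2% and stnB at 15.2%, 13.6% and 12.2% stay nearly level.

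Between the 2 neuron replicates the widest differences were in unc-13, cpx and brp, which also varied widely among the neuroblasts. On the log2(FPKM + 1) scale, neuron 2 exceeded neuron 1 by 1.63 for unc-13, by 1.23 for cpx and by 0.76 for brp, where the SD over all tested genes was 0.55. A larger difference in either direction was seen in 1.34% of all tested genes for unc-13, in 3.66% for cpx and in 12.2% for brp. Snap25 differed by 0.48, Syt1 by 0.40 and Rim by 0.36. By contrast n-syb differed by 0.085, stnB by 0.069, Syx1A by 0.027 and Rop by -0.19. Of the 6 neuron markers, neuron 2 stood at 2.84 times neuron 1 for nrv3, at 1.35 to 1.53 times for elav, fne, Appl and onecut, and at 0.906 times for futsch. With 1 library for neuron 2, by the names of the files on a flow cell of its own, library and biological spread cannot be told apart.

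By level in neurons, from the highest to the lowest mean FPKM, the order was cpx, unc-13, n-syb, brp, Syx1A, Syt1, stnB, Snap25, Rop and Rim. The steps from stnB to Snap25 (69.0 to 46.2 FPKM) and from Rop to Rim (40.9 to 23.6 FPKM) were larger than the summed SDs of the neighbours, and none of the other steps was. In neuroblasts the order was Syx1A, unc-13, cpx, Rop, stnB, n-syb, brp, Syt1, Snap25 and Rim, and only the step from Rop to stnB (16.4 to 9.45 FPKM) was beyond the summed SDs.

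The paralogs of n-syb and Snap25 did not follow them. Syb, the broadly expressed synaptobrevin of general secretion (FBgn0003660), stood at 87.1, 95.1 and 130 FPKM in neuroblasts and at 5.62 and 5.73 FPKM in neurons. Its log2 fold change was 3.96 (SE 0.27), with a limma adjusted p of 0.000279, in the opposite direction to n-syb. Of the FPKM of both synaptobrevins together, n-syb made up 14.0%, 7.02% and 0.320% in neuroblasts and 93.8% and 94.0% in neurons.

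The sum of both synaptobrevins, in FPKM as deposited, varied far less, at 101, 102 and 130 FPKM in neuroblasts and 90.7 and 96.0 FPKM in neurons. The FPKM of a whole library summed to 449268 to 753682 in neuroblasts and to 321551 to 343514 in neurons. The sum of the pair was not rescaled for this. With scaling to the protein-coding sum, the log2 fold change of Syb was 3.26. The log2 ratio of n-syb to Syb was lower in neuroblasts, with no overlap and a difference, neuroblast minus neuron, of -7.94 from FPKM + 1 and of -8.82 from FPKM alone. An exact two-sided permutation test over the 5 replicates gave p = 0.2, the smallest it can give, and 0.28 adjusted over the 7 gene pairs compared.

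Snap24, a close relative of Snap25 that is not restricted to neurons (FBgn0028401), stood at 46.9, 20.4 and 41.3 FPKM in neuroblasts and at 24.8 and 40.1 FPKM in neurons. Its groups overlapped, and its log2 fold change of 0.11 was not called (limma adjusted p = 0.825). That direction flipped to -0.35 with upper quartile and -0.40 with median ratio scaling, to -0.22 with quantile normalization and to -0.64 with scaling to the protein-coding sum. Snap25 made up 14.7%, 10.9% and 0.106% of the pair in neuroblasts and 60.8% and 57.4% in neurons, and the log2 ratio differed by -3.97 from FPKM + 1 and by -5.68 from FPKM alone (exact permutation p = 0.2 for both). The second value rests on the few fragments of Snap25 in neuroblast 3.

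In the synaptotagmins both relatives moved with Syt1. Syt4 stood at 16.7, 6.67 and 0.282 FPKM in neuroblasts and at 106 and 165 FPKM in neurons, its log2 fold change being -4.58 (limma adjusted p = 0.00621). Syt7 stood at 9.29, 2.45 and 0.501 against 32.3 and 76.5 FPKM, with -3.77 (limma adjusted p = 0.00554). The share of Syt1 in the pair with Syt4 was 43.3%, 45.3% and 33.7% in neuroblasts and 36.7% and 33.1% in neurons. The log2 ratio of Syt1 to Syt4 differed by 0.64 from FPKM + 1, without overlap (exact permutation p = 0.2), but by 0.36 from FPKM alone, with overlap (exact permutation p = 0.4). For Syt7 the groups overlapped at -0.19 and -0.57 (exact permutation p = 1 for both). Without neuron 2 Syt4 and Syt7 were not called, nor was Syt7 on the shared flow cell.

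Within the 10 genes, n-syb was also set against Syx1A, Rop and stnB, the genes picked out above by their values in neuroblasts. A lower ratio of n-syb to them in neuroblasts follows from that choice, so it is a description. The log2 ratio of n-syb to Syx1A differed by -2.64 from FPKM + 1 and by -3.27 from FPKM alone, and that of n-syb to Rop by -2.71 and -3.32. Each was without overlap and had an exact permutation p of 0.2. The ratio of n-syb to stnB differed by -1.23 and -1.77 with overlapping groups (exact permutation p = 0.6 for both). At 3 against 2 replicates none of the 7 pairs could have reached 0.05.

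**Figure D4:**
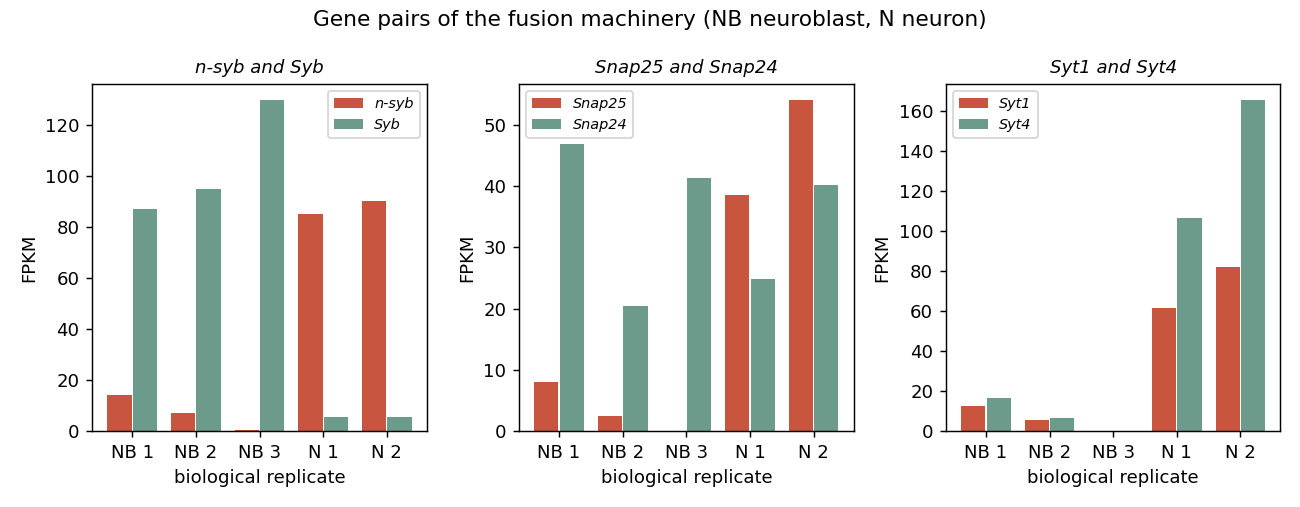
FPKM of n-syb and Syb, Snap25 and Snap24, and Syt1 and Syt4 in the 3 neuroblast (NB) and 2 neuron (N) replicates, as bars from 0. Syb is at 87.1 to 130 FPKM where n-syb is at 14.2 or less and the order is turned in neurons, Snap24 is present in both cell types, and Syt1 and Syt4 are both high in neurons.

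Other genes of the release cycle were read from 6 lists of 76 names, 74 of which were found and 69 tested, and 33 were called higher in neurons and 13 in neuroblasts. Among all tested genes 33.4% were called higher in neuroblasts. The active zone list, of scaffolds, calcium channel subunits and transport proteins, came closest to the 10 genes: 15 of 16 tested were called higher in neurons and 1 in neuroblasts, with a median log2 fold change of -3.47. The RIM-binding protein gene Rbp stood at 1.71 ± 1.39 FPKM (SD, n = 3) in neuroblasts and 26.4 ± 4.05 FPKM (SD, n = 2) in neurons, and the synaptic adhesion receptor neurexin (Nrx-1) at 1.70 ± 1.49 and 32.9 ± 0.582. The presynaptic scaffold Spinophilin (Spn) had a log2 fold change of -2.77 and Rab3-GEF, which activates the vesicle GTPase Rab3, of -3.26. Mean FPKM of Rab3-GEF was 0.615 in neuroblasts and 13.9 in neurons, a 22.6-fold ratio.

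The calcium channel gene cacophony (cac), named outside the rule after its values were seen, stood at 4.17 ± 2.67 FPKM (SD, n = 3) in neuroblasts and 23.6 ± 5.95 FPKM (SD, n = 2) in neurons, a log2 fold change of -2.39 (limma adjusted p = 0.00612). The exception in the list was Liprin-beta, at 24.7 ± 9.78 and 10.9 ± 1.09 FPKM, whose log2 fold change of 1.05 was not called under 3 of the 4 other scalings, nor without either neuron replicate.

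Among the other synaptotagmins and C2 domain proteins 6 of 7 tested were called higher in neurons, with a median of -2.47. Sytalpha and Sytbeta, counted in the 6, stood under 1 FPKM in every neuroblast replicate. They passed the filter through the neurons alone, so their direction was fixed by it. With the filter at 5 FPKM, 4 genes of the list were called higher in neurons. Rabphilin (Rph), an effector of Rab3 on vesicles, stood at 2.50 ± 1.70 FPKM (SD, n = 3) in neuroblasts and 30.5 ± 2.68 FPKM (SD, n = 2) in neurons. Syt14 and Sytalpha had log2 fold changes of -2.47 and -2.42, and Sytbeta of -1.29. Mean FPKM of Sytalpha was 0.256 in neuroblasts and 5.71 in neurons, a 22.3-fold ratio. That of Sytbeta was 0.443 and 2.54, a 5.73-fold ratio. The log2(FPKM + 1) scale understates changes at such low levels. The synaptotagmin-like gene bitesize (btsz), known for a role in epithelia, was called higher in neuroblasts at 0.83, a call lost under each of the 4 other scalings and without each replicate other than neuroblast 3.

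Of 7 tested vesicle proteins 4 were called higher in neurons and 0 in the opposite direction, and their median was -0.82. These were synapsin (Syn, -3.10), synaptogyrin (Syngr, -3.64), the F-BAR protein nervous wreck (nwk, -3.70) and the proton pump subunit Vha100-1 (-0.82), all as log2 fold changes. The call of Vha100-1 was lost without each replicate other than neuroblast 3. The other 3 (Csp, Scamp and sky, named outside the rule after their values were seen) were not called, at 0.0091, -0.10 and -0.35.

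The remaining lists held SNAREs, their assembly factors and endocytosis proteins, to be read beside the shares over all tested genes, 29.9% called toward neurons and 33.4% toward neuroblasts. Of 17 other SNAREs tested, 7 were called higher in neuroblasts, 2 were called higher in neurons, and the median was 0.69. After Syb the endoplasmic reticulum SNARE Syx18 stood highest among the calls by log2 fold change, at 2.41, with 42.0 ± 10.8 FPKM (SD, n = 3) in neuroblasts and 6.94 ± 0.197 FPKM (SD, n = 2) in neurons, followed by the Golgi SNARE membrin at 1.51. Syx6 and Syx17 were the 2 called higher in neurons, at -1.05 and -1.03. The count of 7 fell to 3 when libraries were scaled by the upper quartile, the median ratio or the protein-coding sum, and to 4, 3 and 2 without neuroblast 1, neuron 1 and neuron 2. Syx6 and Syx17 each lost the call without either neuron replicate.

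Of 8 genes for SNARE assembly and disassembly, 2 were called higher in neurons: the inhibitor tomosyn, at -2.59, and Caps, a priming factor of dense-core vesicles, at -3.24. Snap, which recruits the SNARE-separating ATPase, was called higher in neuroblasts at 0.97, a call lost under each of the 4 other scalings and without neuroblast 2, neuron 1 or neuron 2. Without neuron 2 the call of Caps was lost too. The list's median was -0.14. Vps45, an endosomal relative of Rop, had a log2 fold change of -0.39 and was not called.

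Among 14 endocytosis genes, where stnB acts, 4 were called higher in neurons, 3 were called higher in neuroblasts, and the median was -0.21. The clathrin adaptor AP180 (lap) had a log2 fold change of -1.64, the scaffold Dap160 of -1.55 and endophilin A (endoA) of -1.16, all smaller in size than the -2.75 of stnB. The clathrin light chain (Clc, 1.37), the uncoating chaperone Hsc70-4 (1.38) and AP-2sigma (1.41) were called higher in neuroblasts. Calls toward neurons rose from 4 to 7 with upper quartile scaling or quantile normalization, to 8 with median ratio scaling and to 10 with the protein-coding sum. Calls toward neuroblasts fell from 3 to 1 under the first 3 of these and to 0 under the last. Without neuron 1 the calls were 2 toward neurons and 0 toward neuroblasts, and without neuron 2 they were 1 and 1.

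**Figure D5:**
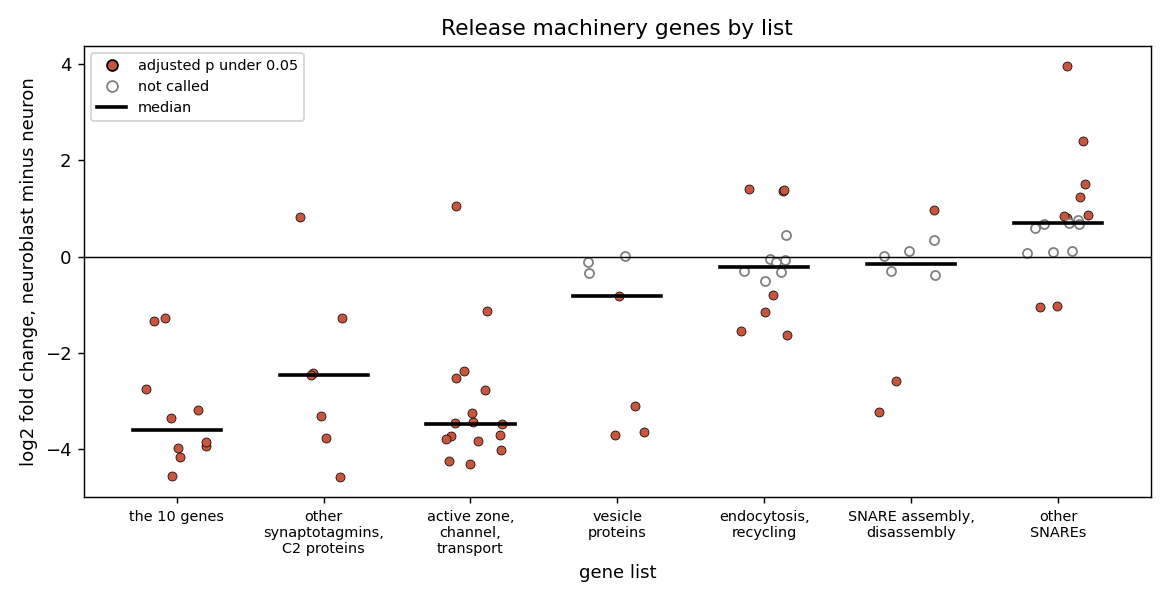
log2 fold change, neuroblast minus neuron, of the 10 genes and of the tested genes of 6 related lists, with filled points for genes called by limma at an adjusted p under 0.05, open points for genes not called and a bar at each median. The medians go from -3.61 for the 10 genes and -3.47 for the active zone list to 0.69 for the other SNAREs.

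The authors' deposited table, which names neurons as its first and neuroblasts as its second condition, lists 3532 genes with an adjusted p of at most 0.00995. It holds 9 of the 10 genes, all higher in neurons. Beside the 14210 genes in the files, it lists 3532 in either direction and 1830 as higher in neurons. In the authors' deposited table the log2 ratio of neuroblast to neuron is -3.84 for n-syb, -3.69 for Syt1, -3.83 for Snap25, -3.91 for cpx, -3.86 for Rim, -3.94 for brp and -2.92 for unc-13. Syx1A at -1.36 and Rop at -1.51 have the smallest changes of the 9 in the authors' deposited table. The gene it does not list is stnB.

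By profile across the 5 replicates, the genes nearest to the mean of the 10 were sought among 4731 other tested genes with at least 10 FPKM in neurons, by the root mean square difference of centred log2(FPKM + 1) values. The nearest were the nicotinic acetylcholine receptor subunit gene nAcRalpha-30D (0.0923), the ecdysone-induced transcription factor genes Eip74EF (0.0988) and Eip75B (0.105), the Notch co-activator gene mastermind (mam, 0.108) and the microtubule-binding protein gene tau (0.119). Among the 10 themselves the distance ran from 0.167 for Rim to 1.31 for Rop. The profile of nAcRalpha-30D was 4.56, 1.98 and 0.0689 FPKM in neuroblasts and 18.5 and 27.1 FPKM in neurons. These distances are descriptions over 5 replicates of 1 comparison, all of whose libraries are shared.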

How the data were processed

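Per the file headers, the 8 deposited library tables are Cufflinks output and give each gene an FPKM with bounds and a status. The submitters' processing notes name, without roles, the aligners TopHat 1.4.1 and BWA 0.6.1, the quantifier Cufflinks 1.3.0, the counter HTSeq and the test DESeq 1.8.3. The authors' deposited table gives mean signal per condition, a ratio (fold), its log2 and p-values, per the file headers. The genome build, and whether counting used the strand of the dUTP libraries, are not given in the sources used here. A reference annotation of release 115 gave only strands, biotypes and the place of stnA, while transcripts and overlaps are from the files.

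Technical libraries were averaged on the log2 scale for the test and as FPKM for printed levels. limma 3.58.1 in R 4.3.3 was fitted to log2(FPKM + 1), with an intensity trend and a two-sided test, over the 7975 genes that reached 1 FPKM in 2 or more of the 5 replicates. This scale understates the change of low genes. Means and SDs are of FPKM over replicates. Effective fragments were read from the Cufflinks interval, whose bounds lie 2 SD of a count from the value. Ratios of gene pairs were taken from FPKM + 1 and, added after seeing the data, from FPKM alone. The script was tested on simulated data. No sequence is shown, since none was used here.

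The 10 genes, the lists, markers and alternatives were chosen with earlier results of these data known. Named are the 10 genes, their paralogs, the markers, the 5 nearest profiles and, from each list, the genes of smallest adjusted p, 4 at most, and those called against its majority, 3 at most. Alternatives covered the pseudocount, filter, scaling, technical libraries, prior variance, a replicate block, threshold, flow cell and each replicate left out.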

Additional observations from a re-analysis of the deposited data

How the results depend on the processing

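Over 19 alternatives none of the 10 genes changed direction, and 170 of the 190 values stayed on their side of the threshold while 20 lost the call. Rim and stnB lost it under none. Leaving out 1 replicate at a time, with the tested genes kept, gave 3 to 10 of the 10 called, 3274 to 5030 genes called in all against 5048, 21 to 33 calls toward neurons in the 6 lists against 33, and a median of the 10 between -4.33 and -2.85. The lowest counts (3, 3274 and 21) came without neuron 2, and without neuron 1 there were 5 of the 10. Without neuron 2 the limma adjusted p was 0.0605 for n-syb and 0.174 for unc-13. Calls fell to 9 with a pseudocount of 0.1 FPKM (cpx lost), 9 with no filter (Syx1A lost) and 7 at an adjusted p under 0.01. The causes were not tested.

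Fitted on replicates 1 and 2 of both cell types with the number as a replicate block, 9 of the 10 were called, Syx1A being at -0.89 with a limma adjusted p of 0.0621. Deviations of samples with the same number correlated across genes at -0.52 for number 1 and -0.39 for number 2. With 2 neuron replicates their deviations mirror each other, so this cannot settle a pairing. The labels give none, though by the names of the files number 1 of both cell types was on 1 flow cell. The split of calls higher in neurons and in neuroblasts was 2381 and 2667 as reported, 3017 and 2130 with upper quartile scaling, 3144 and 2096 with median ratio scaling, and 3487 and 1744 with the protein-coding sum. Under these the median of all tested genes was -0.26, -0.31 and -0.53, against 0.17. Snap24, at 0.11 and not called, was at -0.35, -0.40 and -0.64 there, at -0.22 with quantile normalization, at -0.022 with the block, and between -0.23 and 0.47 with a replicate left out. In neuroblast 3 the values of n-syb, Snap25, Syt1, cpx, Rim and brp rest on 0 to 41 effective fragments per library. The libraries of neuroblast 3 were the deepest, with 5903628 and 16282071 fragments over single-transcript genes.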
